A study of Rattus norvegicus with 52 samples.

Results

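RNA of 11 probe sets that mark antigen-presenting cells, macrophages and collagen-producing cells was followed in liver sections of F344 rats. The probe sets were chosen by accession: every row was taken whose identifier begins with 1 of 8 GenBank accessions that the selecting rule pairs with MHC class II (m15562, k02815), Cd74 (x14254), lysozyme (l12458), C1qb (x71127), Col1a1 (z78279) or Col3a1 (x70369, m21354). No row began with l12458, so lysozyme was not analysed here, and the other 7 accessions gave 11 of the 8740 non-control probe sets of the array. They comprise 5 for antigen presentation (k02815_s_at, m15562_at and m15562_g_at for MHC class II, x14254cds_at and x14254cds_g_at for Cd74), 2 for C1qb (x71127_at, x71127_g_at) and 4 for collagens (z78279_at and z78279_g_at for Col1a1, x70369_s_at and m21354_s_at for Col3a1). The MHC class II accessions are not assigned to single genes here, and a probe set whose identifier ends in _s_at can match several related transcripts.

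Liver is built mostly of hepatocytes, beside resident macrophages (Kupffer cells), dendritic cells, endothelium, bile ducts and collagen-producing stellate cells and fibroblasts. MHC class II molecules are pairs of an alpha and a beta chain that carry peptides to the surface of macrophages, dendritic cells and B cells for recognition by helper T cells. Cd74, the invariant chain, holds newly made class II molecules until peptide is loaded. C1qb is a chain of C1q, the first component of the classical complement pathway, and is made largely by macrophages. Col1a1 and Col3a1 encode chains of type I and type III fibrillar collagen, which in liver come chiefly from stellate cells and portal fibroblasts. The probe sets therefore serve as signs of cells other than hepatocytes in each RNA sample.

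Rats given clofibric acid (CA), a fibrate that activates the nuclear receptor PPARα, and untreated rats were compared in whole sections and in material cut from sections under a microscope with a laser (laser capture microdissection, LCM). Microdissected liver gave 2 arrays from untreated rats and a single array at each of 0.29% and 0.54% CA. Sections labelled LCM reference time and dehydrated sections gave 1 array each at 0, 0.29% and 0.54% CA. There were 8, 7 and 5 arrays of stained sections and 8, 8 and 6 of entire sections at these doses. The labels give no sex, age, route or length of treatment, do not say whether replicates came from separate animals, and do not name the cells that were dissected. P-values therefore measure the spread between these arrays, part of which may be technical. No hepatocyte gene was checked by name, since the table used here pairs no probe set with a gene.

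The deposited values are linear intensities, which can lie below 0. The mean intensity of an array was 110 to 185 in microdissected liver, 132 to 196 in stained sections and 163 to 202 in entire sections. The number of arrays and signal over background limit the precision. GAPDH has probe sets near each end of its transcript, and the 3′ over 5′ ratio, which rises as RNA loses its 5′ sequence, was 3.02 to 14.3 in microdissected liver (4 arrays), 2.59 to 18.9 in stained sections (20 arrays) and 1.18 to 6.49 in entire sections (22 arrays). Its median was 10.2, 7.32 and 4.47 in stained sections at 0, 0.29% and 0.54% CA, and 1.36, 1.35 and 2.16 in entire sections at the same doses. Of the entire arrays, 3 had a ratio above 4, and of the stained arrays 3 read above 200 for 5S rRNA. These 6 stand apart within their preparations, and results were also computed without them. Each limit was applied to that preparation only. For 5S rRNA the microdissected arrays read 97 and 285 in controls, 319 at 0.29% CA and 754 at 0.54% CA. The LCM-reference-time array at 0.29% CA read 587. All of these were kept, so fits without the 6 still hold every microdissected array. Fits with the ratio as a covariate and correlations with it are given below. Whether RNA quality caused the results was not tested.

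Promoters of antigen-presentation genes are shown because the Cd74 probe sets and k02815_s_at moved together in these arrays. The other class II probe sets did so less. Over stained arrays, deviations from group means correlated with those of x14254cds_g_at at -0.62 for m15562_g_at and 0.38 for m15562_at (Pearson). Whether promoter sequence relates to these levels was not tested. The windows run from 250 bases before to 50 bases after the start of the RefSeq transcript in rat build GRCr8, and are read 5′ to 3′ on the gene's strand. Capitals mark CTGATTGG, the core of the Y box of class II promoters, or its inner part ATTGG (the CCAAT box), on either strand. RT1-Da and RT1-Bb, an alpha-chain and a beta-chain gene of MHC class II, stand for their class and are not assigned to a probe set.
Cd74 (chr18:56526956-56527255, plus strand): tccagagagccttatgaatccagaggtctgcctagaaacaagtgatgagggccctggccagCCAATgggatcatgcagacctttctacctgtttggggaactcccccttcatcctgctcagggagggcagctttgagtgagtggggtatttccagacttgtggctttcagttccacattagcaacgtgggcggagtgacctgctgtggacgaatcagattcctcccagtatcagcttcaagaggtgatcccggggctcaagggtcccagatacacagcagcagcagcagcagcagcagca
RT1-Da (chr20:4515165-4515464, plus strand): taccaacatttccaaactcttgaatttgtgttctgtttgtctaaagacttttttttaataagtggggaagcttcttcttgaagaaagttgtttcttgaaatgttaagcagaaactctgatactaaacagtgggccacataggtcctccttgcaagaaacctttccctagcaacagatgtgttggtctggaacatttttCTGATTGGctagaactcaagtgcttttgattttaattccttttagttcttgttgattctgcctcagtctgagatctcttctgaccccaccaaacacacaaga
RT1-Bb (chr20:4604069-4604368, minus strand): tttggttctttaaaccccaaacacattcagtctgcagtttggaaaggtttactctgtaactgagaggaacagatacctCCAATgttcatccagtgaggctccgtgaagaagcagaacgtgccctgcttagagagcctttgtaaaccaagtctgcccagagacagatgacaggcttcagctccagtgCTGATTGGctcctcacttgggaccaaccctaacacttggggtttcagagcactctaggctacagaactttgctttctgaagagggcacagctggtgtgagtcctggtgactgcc
CTGATTGG, searched on both strands, is in the RT1-Da and RT1-Bb windows and in 3.5% of all 33469 promoter windows of that length. ATTGG, which lies inside it, is in all 3 windows shown and in 37.5% of all windows. In Cd74 it begins at -189 from the transcript start, on the opposite strand. CTGATTGG begins at -52 in RT1-Da and at -64 in RT1-Bb. The RefSeq gene start lies before the transcript start used for Cd74 (chr18:56527071) and for RT1-Da (chr20:4515393). Their positions depend on that choice and are not compared. The C1qb window was also searched and holds neither. A match is a run of letters and shows no binding.

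In control liver, staining went with lower signal of k02815_s_at, both Cd74 probe sets, x71127_g_at of C1qb and m21354_s_at of Col3a1, and with higher signal of m15562_g_at and z78279_g_at. Of the 11 probe sets, 7 passed limma's adjusted p of 0.05 between stained and entire controls (5 lower, 2 higher), where 30.1% of all 8191 probe sets tested did (13.7% lower, 16.3% higher). The median log2 difference was -0.19 over the 11 and 0.09 over all tested. In these bulk samples, fewer cells of a type, less RNA per cell and a difference in RNA quality were not separated. The cause of these differences was not tested.

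Among MHC class II probe sets, the deposited intensity of k02815_s_at ran from 41 to 251 with a median of 83.5 in the 8 stained controls, and from 270 to 535 with a median of 394.5 in the 8 entire controls. The deposited values did not overlap, while after normalization stained control replicate 3 lay above entire control replicate 7. The log2 difference, stained minus entire, was -1.67 ± 0.32 (SE, limma adjusted p = 8.44e-05), a 3.18-fold lower level. For the other class II accession, m15562_at had intensities of 125 to 236 (median 162.5) in stained controls and 218 to 375 (median 270.0) in entire controls, with a log2 difference of -0.19 ± 0.25 (SE, adjusted p = 0.62) after normalization. Its companion m15562_g_at had 270 to 897 (median 561.5) in stained controls and 336 to 657 (median 410.5) in entire controls. It was 1.59-fold higher after staining (log2 0.67 ± 0.21, SE, adjusted p = 0.0128), with overlapping groups.

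The Cd74 probe sets were near background in most stained controls. Probe set x14254cds_g_at read from -29 to 69 (median -18.0) in stained controls and from 90 to 327 (median 254.5) in entire controls, without overlap on the deposited or the normalized scale. In 6 of 8 stained controls it was at or below 4, the floor to which low values were raised before taking log2. Its log2 difference of -4.43 ± 0.69 (SE, adjusted p = 4.45e-06) thus depends on the floor, and it was -2.69 ± 0.45 (SE, adjusted p = 1.06e-05) with a floor of 20. Probe set x14254cds_at read -4 to 44 (median 16.5) in stained controls and 51 to 139 (median 103.0) in entire controls (log2 -2.40 ± 0.49, SE, adjusted p = 0.000249). Its deposited values did not overlap, but its normalized values did. With a floor of 20 that difference was -1.66 ± 0.28 (SE, adjusted p = 1.38e-05).

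The 2 probe sets of C1qb gave unlike readings of 1 transcript. Probe set x71127_at read 153 to 313 (median 224.5) in stained controls and 225 to 307 (median 276.0) in entire controls, a log2 difference of 0.24 ± 0.17 (SE, adjusted p = 0.30). Probe set x71127_g_at read -25 to 104 (median 3.5) in stained controls, with 4 of 8 at or below the floor, and 119 to 197 (median 167.0) in entire controls. Every stained control lay below every entire control in deposited intensity, and after normalization stained control replicate 3 lay above 2 entire controls. The log2 difference was -3.27 ± 0.70 (SE, adjusted p = 0.000436). With a floor of 20 its difference was -1.95 ± 0.36 (SE, adjusted p = 6.13e-05).

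Among collagens, the 2 Col3a1 probe sets divided in the same manner, while the 2 Col1a1 probe sets did not. For Col3a1, m21354_s_at read 9 to 37 (median 27.5) in stained controls and 51 to 193 (median 65.5) in entire controls, without overlap on either scale (log2 -1.21 ± 0.31, SE, adjusted p = 0.00286). The other Col3a1 probe set, x70369_s_at, read 67 to 286 (median 204.5) in stained controls and 166 to 391 (median 217.0) in entire controls, a log2 difference of 0.13 ± 0.20 (SE, adjusted p = 0.68). The 2 Col1a1 probe sets were dim in each preparation. Probe set z78279_at read 19 to 48 in stained controls and 17 to 48 in entire controls, and z78279_g_at 21 to 62 and 21 to 53. The first had a log2 difference of 0.62 ± 0.27 (SE, adjusted p = 0.0807). The second was 1.62-fold higher after staining (log2 0.70 ± 0.25, SE, adjusted p = 0.0294). Groups overlapped for each.

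The GAPDH ratio moved with these differences, at 4.66 to 18.9 in stained controls and 1.25 to 6.25 in entire controls. With its log2 as a covariate, none of the 7 limma calls was kept (0 of 11 called, and 0 at an unadjusted p under 0.05), and the differences were -0.38 ± 0.37 (SE, adjusted p = 0.71) for k02815_s_at, -1.41 ± 0.78 (SE, adjusted p = 0.37) for x14254cds_g_at, -1.86 ± 1.0 (SE, adjusted p = 0.36) for x71127_g_at and -0.71 ± 0.45 (SE, adjusted p = 0.48) for m21354_s_at. That fit called 4.86% of all probe sets. The ratio differed between stained and entire sections at each dose, so a fit with it cannot tell ratio and preparation apart. The SE of each difference just given was larger with the covariate. Without the 6 arrays that stand apart the 7 calls held, with x14254cds_g_at at -4.45 ± 0.76 (SE, adjusted p = 3.35e-05).

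**Figure D1:**
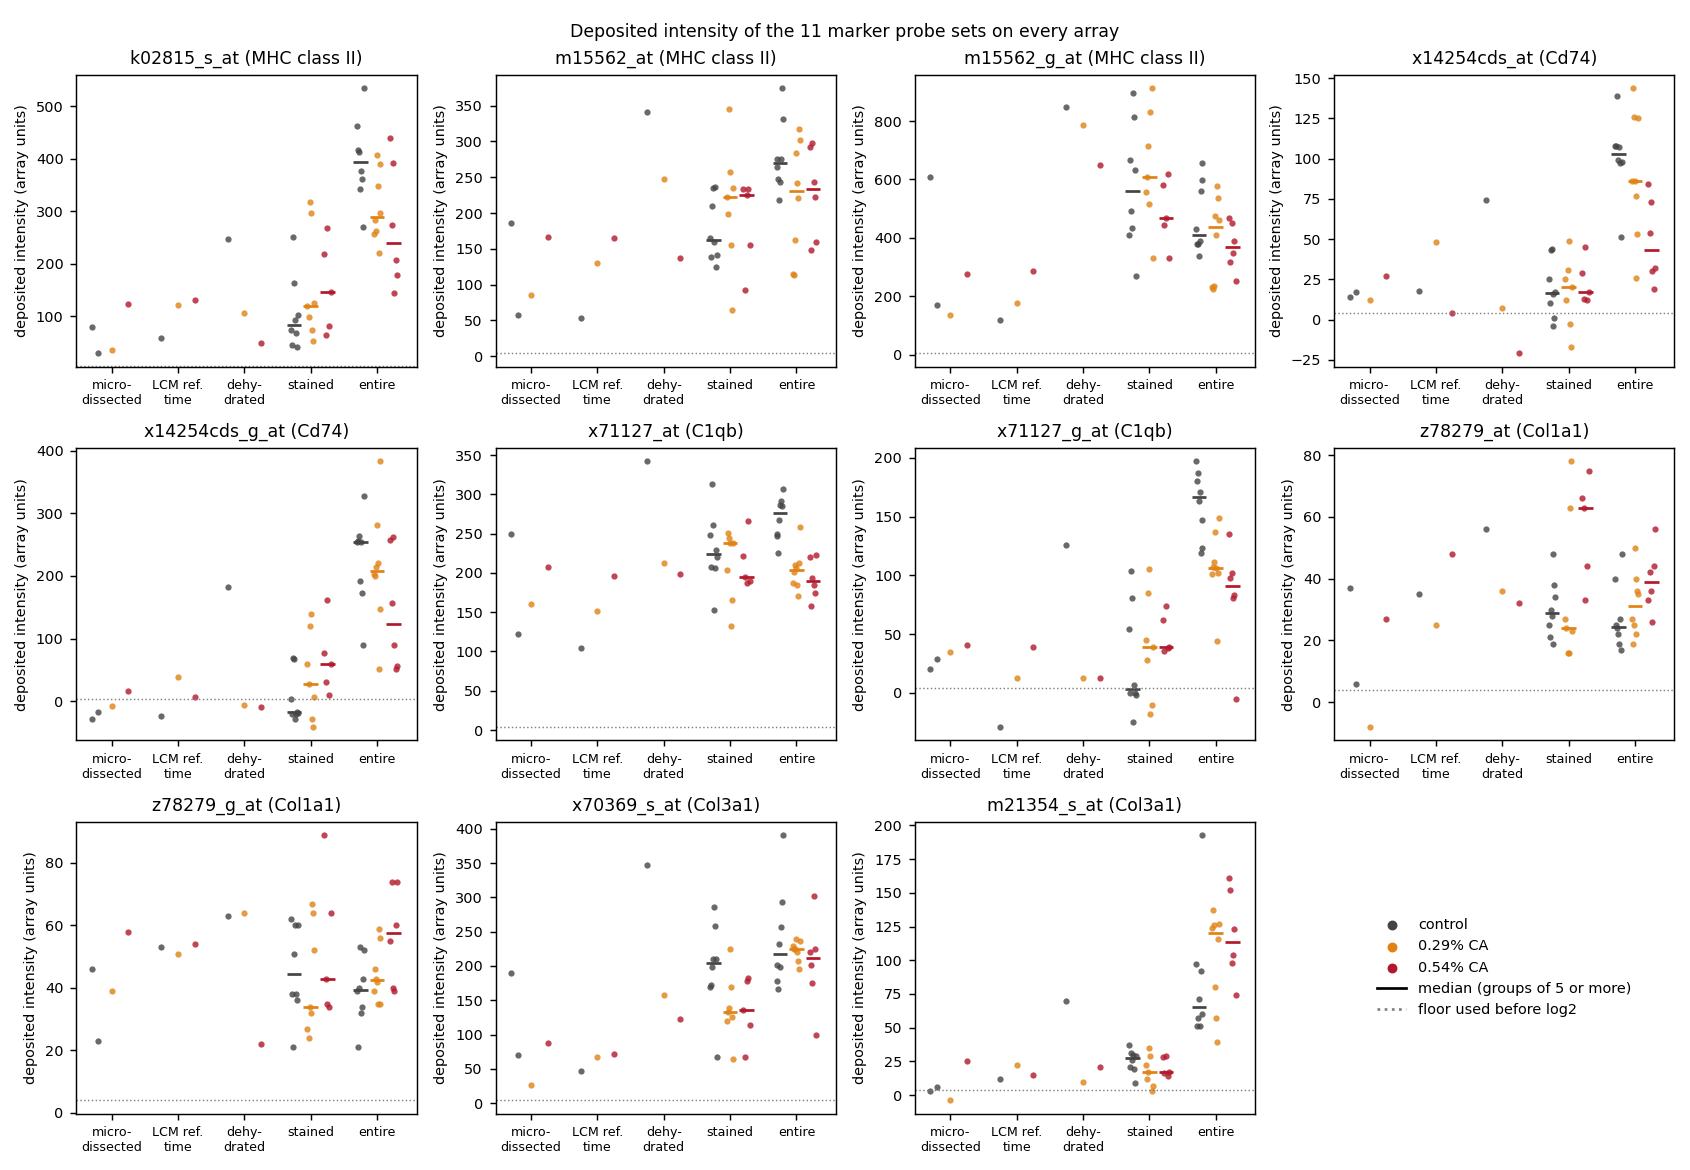
Deposited intensity (array units, linear axis, own scale in each panel) of the 11 marker probe sets by preparation, with 1 point per array, colour for CA dose, bars for medians of groups of 5 or more and a dotted line at the floor of 4. In stained controls both Cd74 probe sets and x71127_g_at have arrays at or below the floor and m21354_s_at lies at 9 to 37, and at the CA doses x14254cds_g_at reaches 162 in stained sections, while x71127_at and m15562_at stay at 58 or more on the stained, microdissected and entire arrays.

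At 0.29% CA, 5 of the 11 probe sets differed between stained and entire sections (1 higher, 4 lower), against 22.8% of all tested (11.7% higher, 11.1% lower). Probe set m21354_s_at of Col3a1 read 3 to 35 (median 17) in stained sections and 39 to 137 (median 120.0) in entire sections, 4.99-fold lower without overlap (log2 -2.32 ± 0.32, SE, adjusted p = 1.54e-06). For Cd74, x14254cds_g_at was lower by a log2 difference of -2.72 ± 0.71 (SE, adjusted p = 0.00431) and x14254cds_at by -2.07 ± 0.51 (SE, adjusted p = 0.00257). With a floor of 20 these differences were -1.92 and -1.42, and that of m21354_s_at was -1.73. The groups overlapped for both Cd74 probe sets, as stained arrays reached 140 and 49 and entire arrays went down to 51 and 26. Probe set m15562_g_at was 2.02-fold higher (log2 1.01 ± 0.22, SE, adjusted p = 0.000588). The lower value of k02815_s_at (log2 -0.89 ± 0.33, SE, adjusted p = 0.0435) lost its call in 10 of 15 fits that left out 1 array, with values of -1.07 to -0.70. Its adjusted p was 0.140 without stained replicate 6 at 0.29%, and its sign turned with the GAPDH covariate (0.15 ± 0.34, SE, adjusted p = 0.91). With that covariate 1 of the 11 was called, m21354_s_at at -1.92 ± 0.42 (SE, adjusted p = 0.00431).

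At 0.54% CA, 1 of the 11 passed, beside 10.1% of all tested (5.23% lower). It was m21354_s_at of Col3a1, with 28, 16, 29, 14 and 17 in the 5 stained arrays and 74 to 161 (median 113.5) in the 6 entire arrays. Every stained array lay below every entire array. The difference was 4.66-fold (log2 -2.22 ± 0.38, SE, adjusted p = 7.99e-05), and it was -1.98 ± 0.40 (SE, adjusted p = 0.00137) with the GAPDH covariate. The Cd74 probe set x14254cds_g_at read 77, 30, 162, 10 and 60 in stained sections and 52 to 262 (median 123.5) in entire sections, a log2 difference of -1.06 with a 95% interval from -2.74 to 0.63.

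**Figure D2:**
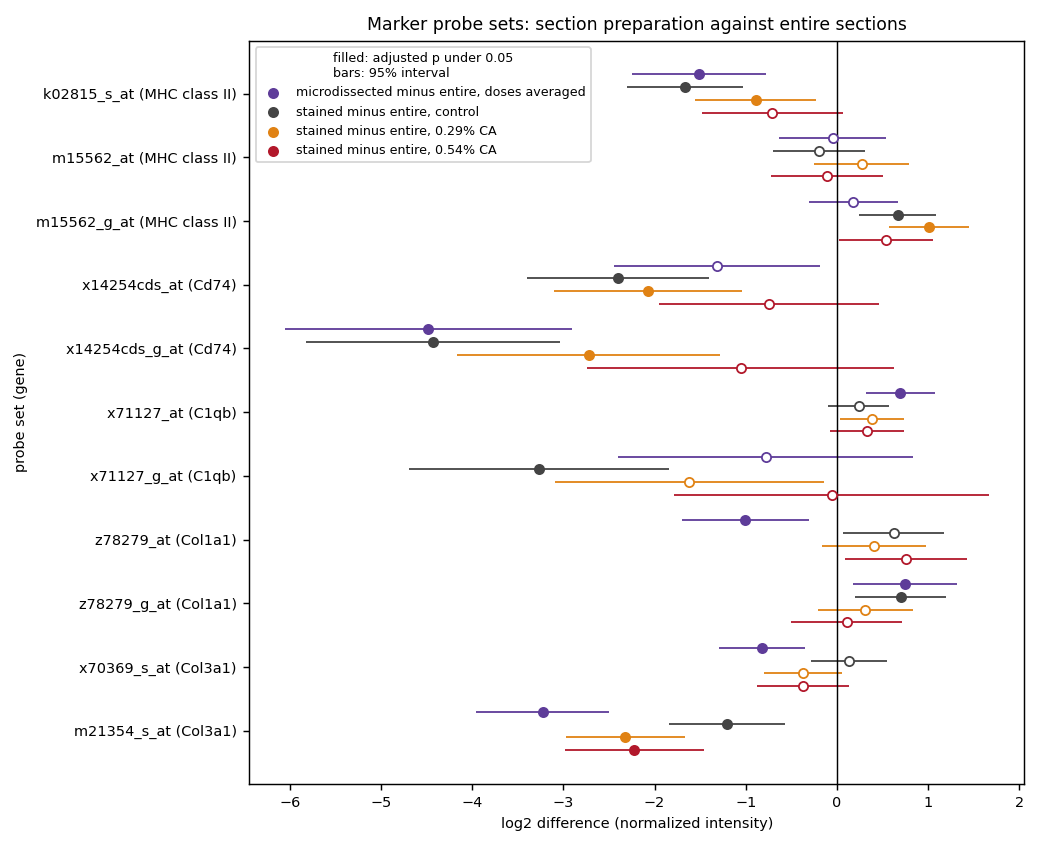
Log2 difference of normalized intensity for each marker probe set, microdissected minus entire with the doses averaged and stained minus entire at each dose. Points are limma estimates, bars are 95% intervals and filled points have an adjusted p under 0.05. Probe set m21354_s_at lies left of 0 with filled points in all 4 comparisons, while the 2 Cd74 probe sets are filled at 0 and 0.29% CA and open at 0.54% CA.

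Paired probe sets share an array and a gene or gene class. A shared transcript is not established for the m15562 pair, which is not assigned to 1 gene. Nor is it for the Col3a1 pair, whose probe sets can match several related transcripts. The difference between their log2 intensities within an array was compared between stained and entire sections, for 5 pairs at 3 doses. This measure was chosen after the values had been seen, and the 15 two-sided exact permutation tests were adjusted together. For C1qb, x71127_g_at minus x71127_at averaged -4.12 ± 1.93 (SD, n = 8) in stained controls and -0.76 ± 0.40 (SD, n = 8) in entire controls, without overlap (exact permutation adjusted p = 0.00117, from an unadjusted 0.000155 that is the lowest 8 against 8 arrays can give). For Cd74, x14254cds_g_at minus x14254cds_at averaged -0.84 ± 1.32 (SD, n = 8) in stained controls and 1.13 ± 0.31 (SD, n = 8) in entire controls, also without overlap (exact permutation adjusted p = 0.00117). At 0.29% CA the C1qb pair differed by -2.02 (exact permutation adjusted p = 0.00466) and the Cd74 pair by -0.59 (exact permutation adjusted p = 0.30), and at 0.54% CA the Cd74 pair differed by -0.27 (exact permutation adjusted p = 0.74). For Col3a1, m21354_s_at minus x70369_s_at was lower in stained sections at each dose, by a log2 difference of -1.36, -1.94 and -1.93 at 0, 0.29% and 0.54% CA (exact permutation adjusted p = 0.00766, 0.00155 and 0.00541). The 2 groups did not overlap at either CA dose.

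The MHC class II pair moved the other way, with m15562_g_at minus m15562_at at 1.65 ± 0.65 (SD, n = 8) in stained controls and 0.72 ± 0.16 (SD, n = 8) in entire controls (exact permutation adjusted p = 0.00291). At 0.54% CA it was 1.43 ± 0.49 (SD, n = 5) after staining, against 0.73 ± 0.20 (SD, n = 6) without it, with an exact permutation adjusted p of 0.0162. At 0.29% CA its difference of 0.82 had an exact permutation adjusted p of 0.0527. Without the arrays that stand apart the difference was 1.01 (exact permutation adjusted p = 0.0194), and over fits that left out 1 array it was 0.47 to 1.02 (adjusted p up to 0.125). The lowest was without stained replicate 6 and the highest without stained replicate 7. For Col1a1, z78279_g_at minus z78279_at differed by 0.04 in controls (exact permutation adjusted p = 0.89) and by -0.65 at 0.54% CA (exact permutation adjusted p = 0.0216), where the adjusted p was 0.0595 without the arrays that stand apart. At 0.54% CA the C1qb pair differed by -0.41 (exact permutation adjusted p = 0.85), and by -1.22 (exact permutation adjusted p = 0.0144) without entire replicate 6, on which x71127_g_at read -5. With a floor of 20 the control difference was -2.0 for the C1qb pair and -1.0 for the Cd74 pair (exact permutation adjusted p = 0.00117 each), so their size depends on the floor.

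**Figure D3:**
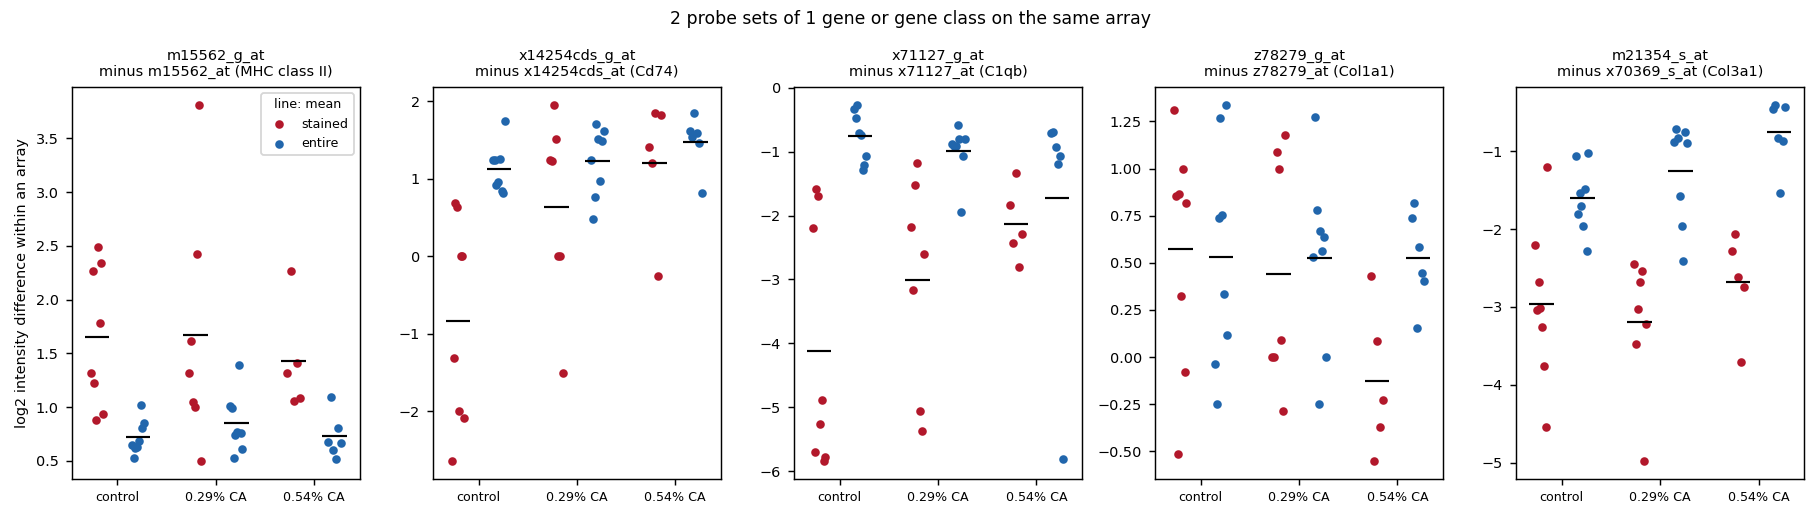
Log2 intensity of 1 probe set minus that of another for the same gene or gene class within an array, for stained (left in each pair, red) and entire (right, blue) sections by CA dose, with 1 point per array and a line at the mean. In controls, the C1qb and Cd74 pairs lie lower in every stained array than in every entire array, and the m15562 pair lies higher on average in stained sections.

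Within a preparation, several probe sets also varied with the GAPDH ratio from array to array. Deviations from the group mean were correlated within the 22 entire and within the 20 stained arrays, and p-values came from 100000 permutations within groups, adjusted over 34 relations. The Cd74 probe set x14254cds_at fell as the ratio rose, with r = -0.78 (permutation adjusted p = 0.00156) and rho = -0.75 (adjusted p = 0.00119) over entire arrays, and r = -0.53 (adjusted p = 0.0366) and rho = -0.64 (adjusted p = 0.00820) over stained arrays. Leaving out the 2 arrays whose deviation in the ratio lay farthest from the median gave r = -0.79 and r = -0.53. For x14254cds_g_at the correlations over stained arrays were r = -0.72 (permutation adjusted p = 0.00156) and rho = -0.67 (adjusted p = 0.00272), with r = -0.71 without the 2 arrays. Over entire arrays they were r = -0.69 (permutation adjusted p = 0.00869) and rho = -0.51 (adjusted p = 0.0527), with r = -0.67 without the 2.

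For k02815_s_at of MHC class II, r was -0.74 (permutation adjusted p = 0.00268) and rho -0.72 (adjusted p = 0.00272) over stained arrays, with r = -0.69 without 2 arrays. Over entire arrays r was -0.49 (permutation adjusted p = 0.0707) and rho -0.36 (adjusted p = 0.21), with r = -0.38 without 2. In contrast, m15562_g_at rose with the ratio over entire arrays (r = 0.54, permutation adjusted p = 0.0243, and rho = 0.71, adjusted p = 0.00297), with r = 0.41 without 2. Over stained arrays its r was 0.41 (permutation adjusted p = 0.17) and rho 0.32 (adjusted p = 0.30), with r = 0.40 without 2. For x71127_at of C1qb r was -0.11 over entire arrays (rho = -0.11, permutation adjusted p = 0.69 and 0.66, r = -0.15 without 2) and 0.17 over stained arrays (rho = 0.27, adjusted p = 0.54 and 0.32, r = 0.14 without 2). For x71127_g_at r was -0.19 over entire arrays (rho = -0.41, permutation adjusted p = 0.48 and 0.10, r = -0.19 without 2). Over stained arrays r was -0.38 (rho = -0.40, permutation adjusted p = 0.17 and 0.15, r = -0.41 without 2).

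Probe sets for the same gene did not always vary together. The 2 arrays left out here were those farthest from the median deviation of 1 probe set, not of the GAPDH ratio. That probe set was x14254cds_at for the Cd74 pair, m15562_at for the m15562 pair and x70369_s_at for the Col3a1 pair. For k02815_s_at with Cd74 it was k02815_s_at. The Cd74 pair had r = 0.88 (permutation adjusted p = 0.00034) and rho = 0.82 (adjusted p = 0.000907) over entire arrays, with r = 0.80 without 2, and r = 0.77 (adjusted p = 0.00268) and rho = 0.77 (adjusted p = 0.00272) over stained arrays, with r = 0.69 without 2. The MHC class II probe set k02815_s_at followed x14254cds_g_at of Cd74 in each preparation, with r = 0.78 (permutation adjusted p = 0.00125) and rho = 0.85 (adjusted p = 0.00051) over entire arrays (r = 0.83 without 2), and r = 0.76 (adjusted p = 0.00268) and rho = 0.65 (adjusted p = 0.0195) over stained arrays (r = 0.67 without 2). The m15562 pair had r = 0.87 (permutation adjusted p = 0.00034) and rho = 0.89 (adjusted p = 0.00034) over entire arrays, with r = 0.82 without 2, and r = -0.24 (adjusted p = 0.44) and rho = -0.14 (adjusted p = 0.64) over stained arrays, with r = -0.08 without 2. The Col3a1 pair had r = 0.53 (permutation adjusted p = 0.0243) and rho = 0.52 (adjusted p = 0.031) over entire arrays, but r = 0.25 without 2 of them, so that relation rests on those arrays. Over stained arrays it had r = 0.01 and rho = 0.02 (permutation adjusted p = 0.96 and 0.95, r = 0.01 without 2). Whether these correlations differ between preparations was not tested.

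**Figure D4:**
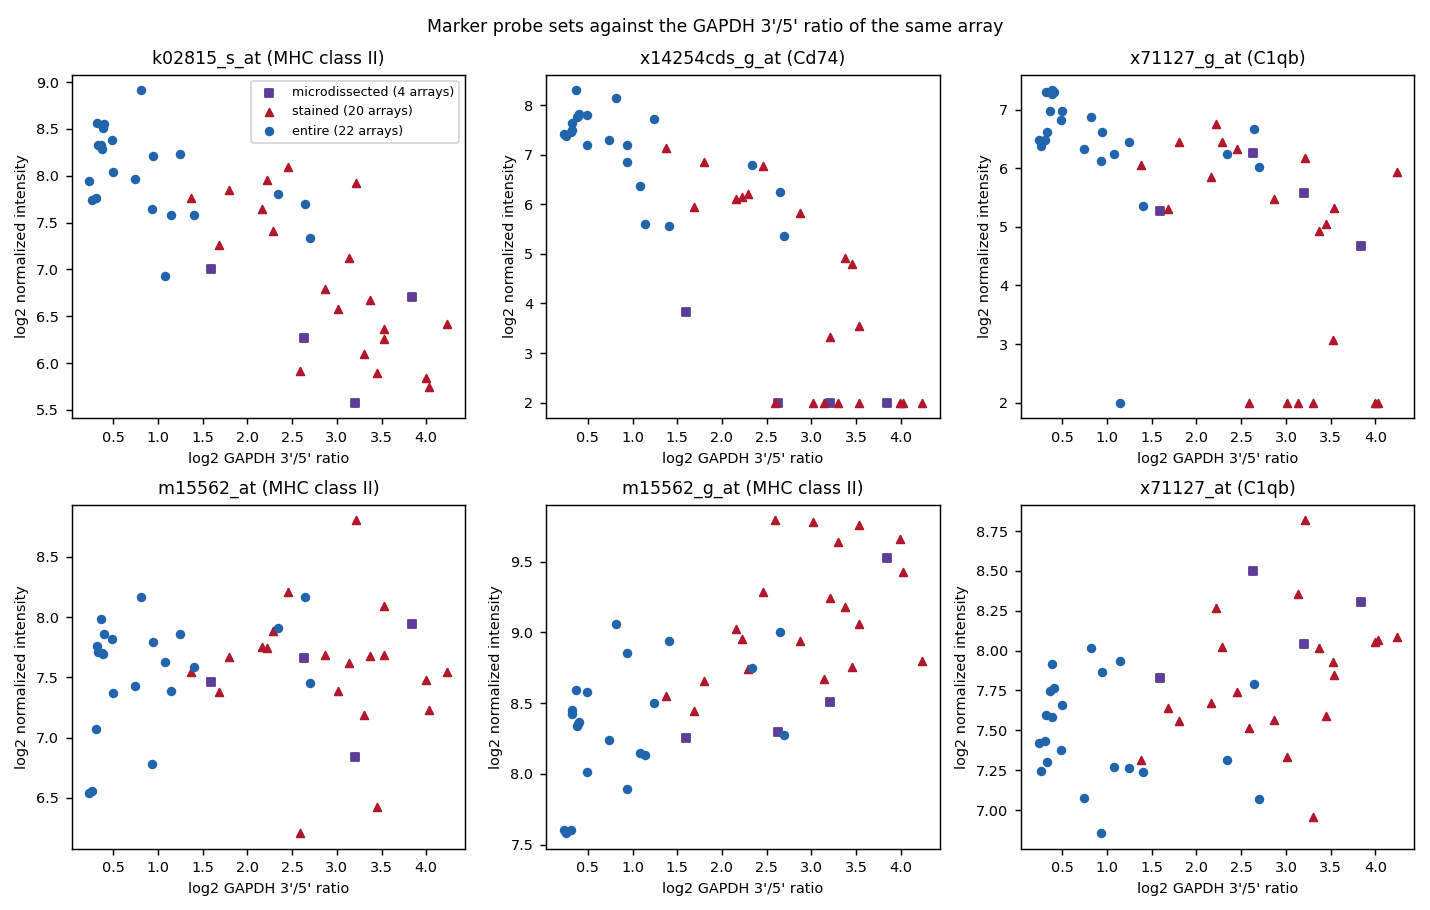
Log2 normalized intensity of 6 marker probe sets (vertical axis) against the log2 GAPDH 3'/5' ratio of the same array (horizontal axis), with squares for microdissected, triangles for stained and circles for entire arrays. Over these preparations together, values of k02815_s_at, x14254cds_g_at and x71127_g_at are lower on arrays with high ratios, with x14254cds_g_at and x71127_g_at reaching the floor at a log2 of 2, while m15562_g_at is higher there and m15562_at and x71127_at are not lower. The preparations differ in the ratio, so the pooled pattern is not a relation within a preparation.

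In entire sections at 0.54% CA, 3 probe sets for C1qb, Cd74 and MHC class II were lower than in controls, in a fit of the entire sections alone. At 0.29% CA, 1 of the 11 was called, beside 11.1% of all 7804 tested (5.63% lower). That share of members, 1 in 11, is near that of all probe sets. It was x71127_at of C1qb, at 170 to 259 (median 203.5) at 0.29% CA and 225 to 307 (median 276.0) in controls, 1.34-fold lower with overlapping groups (log2 -0.42 ± 0.12, SE, adjusted p = 0.0293). At 0.54% CA, 3 of the 11 were called, all lower, beside 15.8% of all tested (7.71% lower). The median log2 difference at 0.54% CA was -0.35 over the 11 and -0.01 over all tested.

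Probe set x71127_at read 158 to 223 (median 189.5) at 0.54% CA and 225 to 307 (median 276.0) in controls. In deposited intensity all 6 CA arrays lay below all 8 controls, with 223 the highest of the CA arrays and 225 the lowest of the controls, while after normalization replicate 6 at 0.54% CA lay above 7 of the 8 controls. The normalized level was 1.41-fold lower (log2 -0.49 ± 0.13, SE, adjusted p = 0.0127). The other C1qb probe set, x71127_g_at, read -5 to 135 (median 90.5) at 0.54% CA and 119 to 197 (median 167.0) in controls (log2 -1.47 ± 0.50, SE, adjusted p = 0.0519). Without replicate 6, the array that read -5, its log2 difference was -0.75 (adjusted p = 0.0161). For Cd74, x14254cds_at read 19 to 84 (median 43.0) at 0.54% CA and 51 to 139 (median 103.0) in controls, 2.39-fold lower (log2 -1.26 ± 0.34, SE, adjusted p = 0.0135). Its companion x14254cds_g_at read 52 to 262 (median 123.5) at 0.54% CA and 90 to 327 (median 254.5) in controls (log2 -0.91 ± 0.41, SE, adjusted p = 0.15). The MHC class II probe set k02815_s_at read 144 to 440 (median 239.5) at 0.54% CA and 270 to 535 (median 394.5) in controls, 1.59-fold lower with overlapping groups (log2 -0.67 ± 0.21, SE, adjusted p = 0.0307).

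The collagen probe sets gave no call at either dose in entire sections. Probe set m21354_s_at of Col3a1 read 51 to 193 (median 65.5), 39 to 137 (median 120.0) and 74 to 161 (median 113.5) at 0, 0.29% and 0.54% CA, with a log2 difference of 0.54 (95% interval -0.06 to 1.14) between 0.54% CA and control. For x70369_s_at the same difference was -0.31 (95% interval -0.69 to 0.08). Probe set z78279_g_at of Col1a1 read 39 to 74 (median 57.5) at 0.54% CA and 21 to 53 (median 39.5) in controls (log2 0.52 ± 0.18, SE, adjusted p = 0.0595). Between the doses, 0 of the 11 were called in entire sections (limma, 1 at an unadjusted p under 0.05), beside 0.935% of all tested (10.9% unadjusted).

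The entire-section calls were sensitive to the fit. That of x71127_at at 0.29% CA was lost without control replicate 5, 6 or 8 or without replicate 1 or 5 at 0.29% (adjusted p up to 0.0629), and that of k02815_s_at at 0.54% CA in 8 of 14 fits that left out 1 array (log2 -0.80 to -0.52, adjusted p up to 0.0871). With all 15 groups sharing 1 estimate of the spread, 0 of the 11 were called at 0.29% CA and 0 at 0.54% CA (limma, 1 and 2 at an unadjusted p under 0.05), with adjusted p of 0.28 for k02815_s_at, 0.15 for x14254cds_at and 0.0747 for x71127_at at 0.54%. Without the arrays that stand apart, x71127_at had an adjusted p of 0.0664 at 0.29% and 0.0545 at 0.54% CA. With the GAPDH ratio, higher at 0.54% CA, as a covariate, the log2 difference at 0.54% CA was -0.96 ± 0.23 (SE, adjusted p = 0.00481) for x14254cds_at, -0.48 ± 0.14 (SE, adjusted p = 0.0205) for x71127_at and -0.56 ± 0.19 (SE, adjusted p = 0.0520) for k02815_s_at.

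In stained sections CA gave no call among the markers. At 0.29% CA, 0 of the 11 passed (limma, 2 at an unadjusted p under 0.05), beside 3.65% of all 7913 tested (12.6% unadjusted), and at 0.54% CA 0 passed (2 unadjusted), beside 6.27% (18.2% unadjusted). Probe set x70369_s_at of Col3a1 read 136, 67, 178, 183 and 114 at 0.54% CA and 67 to 286 (median 204.5) in controls, a log2 difference of -0.81 ± 0.27 (SE, adjusted p = 0.0897). It passed without stained control replicate 8, which read 67 (log2 -0.996, adjusted p = 0.00797). For x14254cds_g_at of Cd74 the values at 0.54% CA were 77, 30, 162, 10 and 60, and those of controls -29 to 69 (median -18.0). All 5 CA arrays were above the floor and 6 of 8 controls were not, with a log2 difference of 2.47 ± 1.0 (SE, adjusted p = 0.18) and a GAPDH ratio median of 4.47 at 0.54% CA and 10.2 in controls. With all 15 groups in the fit, x14254cds_g_at and x70369_s_at passed at 0.54% CA (adjusted p = 0.0314 and 0.0164). The log2 difference at 0.54% CA had a 95% interval of -0.67 to 1.24 for k02815_s_at, -1.06 to 1.85 for x14254cds_at and -0.90 to 0.10 for x71127_at. Between the doses 0 of the 11 were called (0 at an unadjusted p under 0.05), beside 0.0632% of all tested (4.73% unadjusted).

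The CA effect itself was compared between the preparations, as stained minus entire. At 0.29% CA 0 of the 11 were called by limma (1 at an unadjusted p under 0.05), beside 0.0855% of all 8191 tested (4.77% unadjusted). At 0.54% CA 0 were called and 4 had an unadjusted p under 0.05, against 9.79% of all tested, while 0.134% of all tested were called. Those with the largest differences were x14254cds_g_at of Cd74 (log2 3.37, 95% interval 1.19 to 5.56, adjusted p = 0.29) and x71127_g_at of C1qb (log2 3.21, 95% interval 0.97 to 5.45, adjusted p = 0.36). Both had stained controls at the floor, and with a floor of 20 the differences were 1.79 and 1.51.

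**Figure D5:**
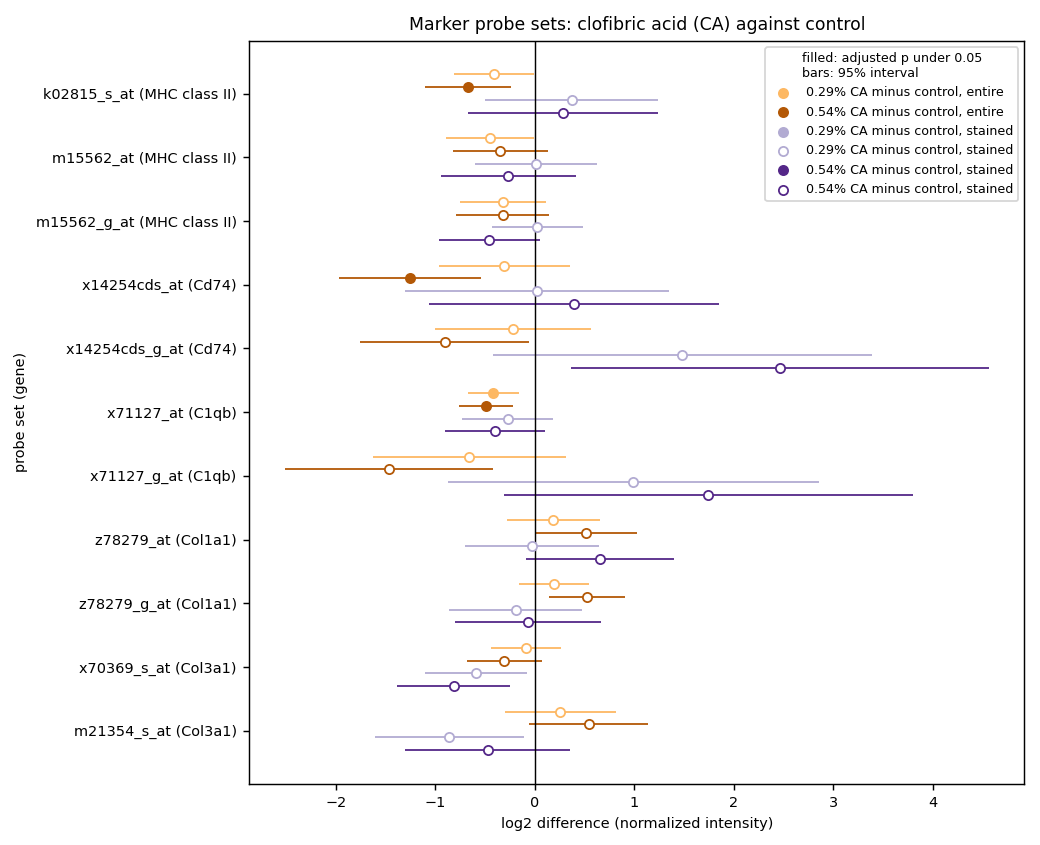
Log2 difference of normalized intensity, CA minus control, for each marker probe set at 2 doses in entire and in stained sections. Points are limma estimates, bars are 95% intervals and filled points have an adjusted p under 0.05. The filled points are x71127_at at both doses and k02815_s_at and x14254cds_at at 0.54% CA, all in entire sections, and the intervals of stained sections are wider.

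Microdissected liver held low signal for Cd74 and for m21354_s_at of Col3a1, and kept signal for the m15562 probe sets and x71127_at. With the doses averaged, k02815_s_at and the other Col3a1 probe set, x70369_s_at, were also lower than in entire sections. Probe set x71127_g_at of C1qb was not called. The fit pooled the spread over all 15 groups and averaged the doses, so the lone CA arrays are assumed to vary like the other groups. Against entire sections, 7 of the 11 were called (5 lower, 2 higher), beside 30% of all 8318 tested (13.9% lower, 16.1% higher). Against stained sections, 2 were called, both lower, beside 12.3% of all tested (5.82% lower). Neither was a Cd74 probe set, whose signal was also low in stained sections. The log2 difference from stained sections was 0.42 (95% interval -0.72 to 1.56) for x14254cds_at and -1.75 (95% interval -3.34 to -0.16) for x14254cds_g_at. For k02815_s_at, also not called, it was -0.43 (95% interval -1.17 to 0.32). The median log2 difference over the 11 was -0.82 against entire and -0.43 against stained sections, and over all tested it was 0.00 and -0.04.

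On the microdissected arrays, m21354_s_at of Col3a1 read 3 and 6 in controls, -4 at 0.29% CA and 25 at 0.54% CA. In entire sections its lowest reading was 39. The log2 difference from entire sections was -3.23 ± 0.36 (SE, adjusted p = 4.73e-09), or -1.85 ± 0.25 (SE, adjusted p = 3.91e-07) with a floor of 20. From stained sections it was -1.31 ± 0.36 (SE, adjusted p = 0.0120), a call lost with a floor of 20 (log2 -0.21, adjusted p = 0.75). The other Col3a1 probe set, x70369_s_at, read 189 and 70 in microdissected controls, 27 at 0.29% CA and 88 at 0.54% CA, and was 1.77-fold lower than in entire sections (log2 -0.82 ± 0.23, SE, adjusted p = 0.00655). With the doses averaged, both Col3a1 probe sets were thus lower in microdissected than in entire sections, also with the GAPDH covariate (log2 -2.88 ± 0.41, SE, adjusted p = 2.17e-06, and -0.83 ± 0.28, SE, adjusted p = 0.0294). For x70369_s_at the difference lay in the lone CA arrays. Its mean normalized log2 level in controls was 7.55 in microdissected and 7.58 in entire sections. The levels were 5.86 and 7.49 at 0.29% CA, and 6.46 and 7.27 at 0.54% CA.

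The Col1a1 probe sets took opposite sides. Probe set z78279_at read 37 and 6 in microdissected controls, -8 at 0.29% CA and 27 at 0.54% CA, a log2 difference of -1.60 ± 0.35 from stained sections (SE, adjusted p = 0.00123) and -1.0 ± 0.35 from entire sections (SE, adjusted p = 0.0242). With a floor of 20 neither call was kept (log2 -0.64, adjusted p = 0.16, and -0.12, adjusted p = 0.89). The call against entire sections was also lost without microdissected control replicate 2, which read 6 (log2 -0.60, adjusted p = 0.21). Probe set z78279_g_at read 46, 23, 39 and 58 on the same arrays and was higher than in entire sections (log2 0.75 ± 0.28, SE, adjusted p = 0.0406), a call lost on the deposited scale (log2 0.51, adjusted p = 0.15), with the GAPDH covariate (log2 0.49, adjusted p = 0.32) and without microdissected control replicate 1 (log2 0.63, adjusted p = 0.12).

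For Cd74, x14254cds_g_at read -29 and -17 in microdissected controls, -8 at 0.29% CA and 16 at 0.54% CA, so 3 of 4 arrays were at the floor. Its log2 difference from entire sections was -4.48 ± 0.78 (SE, adjusted p = 2.44e-05), and -2.77 ± 0.50 (SE, adjusted p = 4.21e-05) with a floor of 20. Probe set x14254cds_at read 14 and 17 in microdissected controls, below the lowest entire control of 51, and 12 at 0.29% CA, below the lowest entire array of 26 at that dose. At 0.54% CA it read 27, inside the entire range of 19 to 84 (doses averaged, log2 -1.32 ± 0.56, SE, adjusted p = 0.0718). For MHC class II, k02815_s_at read 80 and 29 in microdissected controls, 35 at 0.29% CA and 123 at 0.54% CA, a log2 difference of -1.52 ± 0.36 from entire sections (SE, adjusted p = 0.00132), which was -0.71 ± 0.35 (SE, adjusted p = 0.16) with the GAPDH covariate. In the same order m15562_at read 186, 58, 86 and 166, a log2 difference of -0.04 ± 0.29 (SE, adjusted p = 0.96), and m15562_g_at read 607, 169, 136 and 275 (log2 0.18 ± 0.24, SE, adjusted p = 0.65).

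For C1qb, x71127_at read 249 and 122 in microdissected controls, 160 at 0.29% CA and 207 at 0.54% CA, and was 1.62-fold higher than in entire sections after normalization (log2 0.70 ± 0.19, SE, adjusted p = 0.00363). On the deposited scale centred on each array's median the call was lost (log2 0.33, adjusted p = 0.21), and there the median of all probe sets lay 0.23 higher in microdissected than in entire sections. Probe set x71127_g_at read 20, 29, 35 and 41, with a log2 difference of -0.78 (95% interval -2.40 to 0.84).

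Between CA and control in microdissected liver, 1 of the 11 was called, beside 12.8% of all tested (7.04% lower). It was x70369_s_at of Col3a1, lower by a log2 difference of -1.39 ± 0.41 (SE, adjusted p = 0.0198). The call was lost without control replicate 1, which read 189 (log2 -0.97, adjusted p = 0.23), and on the deposited scale (log2 -1.22, adjusted p = 0.22).

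The dehydrated arrays and those labelled LCM reference time are single at each dose, so they have no replicate check and were not tested. On dehydrated arrays x14254cds_g_at read 182, -6 and -10 at 0, 0.29% and 0.54% CA, while the GAPDH ratio was 6.36, 11.8 and 14.3. Probe set k02815_s_at read 247, 105 and 49 on these arrays and m15562_g_at 849, 785 and 651. Within the dehydrated arrays the control read highest for all 3 in deposited intensity, though its k02815_s_at was below every entire control (270 to 535) and its x14254cds_g_at below their median of 254.5. The mean intensity of these arrays was 208, 188 and 161. After normalization the control stayed highest for x14254cds_g_at and k02815_s_at but was lowest for m15562_g_at (log2 9.33, 9.40 and 9.45). On LCM-reference-time arrays x14254cds_g_at read -23, 38 and 7 at the same doses, with GAPDH ratios of 7.28, 3.12 and 4.70. There k02815_s_at read 59, 121 and 130, x71127_at 105, 152 and 196, and m21354_s_at 12, 22 and 15. The mean intensity of these arrays was 114, 142 and 168. On the normalized log2 scale k02815_s_at was 6.91, 7.66 and 7.33, x71127_at 7.95, 8.06 and 7.95, and m21354_s_at 4.15, 4.92 and 4.10.

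Over the 5 antigen presentation probe sets, the 4 microdissected arrays summed to 256 to 858, stained sections to 512 to 1137 in controls, 718 to 1528 at 0.29% CA and 641 to 1167 at 0.54% CA, and entire sections to 1187 to 1891, 893 to 1662 and 679 to 1541 at the same doses. Over the 4 collagen probe sets the sums were 54 to 275 in microdissected liver, 190 to 424, 147 to 328 and 189 to 319 in stained sections at 0, 0.29% and 0.54% CA, and 275 to 684, 335 to 433 and 304 to 471 in entire sections. Over the 2 C1qb probe sets they were 151 to 269 in microdissected liver, 128 to 417, 115 to 343 and 229 to 304 in stained sections, and 408 to 458, 214 to 408 and 218 to 355 in entire sections. At 0.54% CA the C1qb medians were 261 in stained and 261.5 in entire sections, and the antigen presentation sums of the 2 preparations overlapped at both CA doses. In summed deposited intensity, entire controls thus stood above every microdissected array for antigen presentation and C1qb, and overlapped them at 275 for collagen. These sums are not normalized, and the mean intensity of an array was 110 to 185 in microdissected liver and 163 to 202 in entire sections. After normalization x71127_at was higher in microdissected than in entire sections (log2 0.70), and x71127_g_at was not called (log2 -0.78, 95% interval -2.40 to 0.84).

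The probe sets whose pattern over the 22 entire arrays was most like each set were found by Pearson correlation with the set's mean standardized log2 value, among 3771 probe sets above the floor on all 22. For antigen presentation they were x13044_at (r = 0.90, rho = 0.90) and d10757_at (r = 0.80, rho = 0.84). For C1qb they were x83231_at (r = 0.91, rho = 0.86) and rc_h31813_at (r = 0.89, rho = 0.82). For the collagens they were x62322_at (r = 0.79, rho = 0.78) and x73371_at (r = 0.79, rho = 0.75). These are descriptions of 22 arrays that share dose groups and RNA quality, chosen as the highest of many, and they carry no p-value.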

How the data were processed

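Total RNA of liver sections was hybridized to 1-colour arrays, with 52 arrays in 15 groups. In the table deposited by the authors, each of 8799 probe sets (59 controls) has a linear intensity on every array. Which software and scaling made it is not stated in the labels or the table. The table holds no gene names, and 0 of the 8 member accessions matched the RefSeq gene table, so the names are those of the selecting rule and marker lists fixed by symbol were not used. Intensities under 4, the 10th percentile of positive values, were raised to it (35.3% of values), log2 transformed and quantile normalized between all arrays.

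Groups were compared by limma's two-sided moderated test (limma 3.58.1, R 4.3.3, functions lmFit and eBayes). Adjustment by Benjamini-Hochberg ran over every non-control probe set that exceeded the floor on any fitted array, and adjusted p-values under 0.05 are called. The 3 entire groups, the 3 stained groups or all 6 were fitted together, and all 15 for microdissected liver. Exact and sampled permutation tests used SciPy 1.17.1 in Python 3.11.15. All 11 members are named. Members and lists were chosen with earlier results of these data known.

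The fitting code was tested on simulated data. Alternatives were the deposited scale centred on array medians, a floor of 20, filters on low values, other groups in the fit, array weights, blocking on replicate number, robust fitting with a trended prior, the GAPDH ratio as a covariate, leaving out the 6 arrays that stand apart, and leaving out each replicate.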

Additional observations from a re-analysis of the deposited data

Results flagged for a closer look

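In 7 of 66 tests of a marker probe set within a group of 5 to 8 arrays, 1 array lay far from the others, where chance alone flags about 1 in 20. The value given is its gap to the nearest array as a share of the group's range on the log2 scale. Of these, 2 are low readings of x71127_g_at (C1qb) in entire sections: 44 at 0.29% CA replicate 6, next to 102 (0.55), and -5 at 0.54% CA replicate 6, next to 83 (0.869). Probe set x71127_at read 153 in stained control replicate 5, next to 206 (0.58). For MHC class II, m15562_at read 92 in stained replicate 2 at 0.54% CA, next to 156 (0.722). Among collagens, z78279_g_at read 21 in stained control replicate 3, next to 38 (0.62), and x70369_s_at 67 in stained control replicate 8, next to 170 (0.625). The only flagged high reading was m21354_s_at at 193 in entire control replicate 8, next to 97 (0.555). The GAPDH 3′/5′ ratio of these arrays was 2.65, 2.21, 8.09, 10.9, 4.66, 8.81 and 1.76 in the order given.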

How the results depend on the processing

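Counts below are of the 11 probe sets called by limma. For 0.29% CA against control in entire sections, where 1 was called, 0 were called on the deposited scale, with all 15 groups in the fit and without the 6 arrays that stand apart (1, 1 and 3 at an unadjusted p under 0.05), and 0 to 1 without each replicate. For 0.54% CA in entire sections, with 3 called, the count was 5 with a floor of 20, 5 with a filter at the median, 6 with array weights, 0 with all 15 groups and 2 to 5 without each replicate (5 without replicate 3 at 0.54%). For 0.54% CA in stained sections, with 0 called, it was 2 with all 15 groups, 1 with array weights, 1 without the 6 arrays and 0 to 1 without each replicate, and for 0.29% CA there 0 to 1 (1 without stained control replicate 8 in each case). For stained against entire sections the GAPDH covariate gave 0 of 7 in controls and 1 of 5 at 0.29% CA. For microdissected against stained, with 2 called, it was 4 on the deposited scale, 0 with a floor of 20 (4 unadjusted), 1 with only those preparations fitted, 4 without the 6 arrays and 2 to 4 without each replicate (4 without microdissected control replicate 1). For CA in microdissected liver, with 1 called, it was 0 on the deposited scale, 0 with array weights, and 0 and 2 without control replicates 1 and 2. Samples of 1 replicate number did not vary together throughout (correlation of deviations -0.17 to 0.50 over 9 pairs of groups). For 0.29% CA and control the median was 0.23 in stained sections, against -0.05 between other numbers, with 6 of 7 pairs over 0.1 and 3 of 7 samples correlating best with their own number, and 0.13 in entire sections, with 5 of 8 pairs over 0.1 and 4 of 8 samples. The replicate block gave 1 for 0.29% CA and 1 for 0.54% CA in stained sections, where 0 were called (at 0.54% x70369_s_at, log2 -0.97, adjusted p = 0.0243), and kept every other count within 1.5 times. The other counts stayed within 1.5 times of their value under all alternatives run.

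Of 415 alternative values for single probe sets and pairs, 368 kept direction and call, 32 lost a call, 14 gained one and 1 turned its sign: k02815_s_at in stained against entire sections at 0.29% CA, at 0.15 with the GAPDH covariate. Leaving out a replicate turned the sign of 10 values of 3 uncalled pair differences: the Col1a1 pair in controls (-0.0715 to 0.196) and at 0.29% CA (-0.211 to 0.0332), and the Cd74 pair at 0.54% CA (-0.432 to 0.0962). On the deposited scale 74.2% of all calls between stained and entire controls were higher, against 54.3% on the quantile scale, and over all probe sets the median difference was 0.42 there, against 0.09. The share of calls that were higher was also 70.2% against 51.5% at 0.29% CA and 60.7% against 48.1% at 0.54% CA for stained against entire, 64.8% against 53.7% for microdissected against entire, 37.8% against 52.8% for microdissected against stained, 56.7% against 44.8% for CA in microdissected liver, and 58.8% against 48.0% between doses in entire sections. The 7 marker calls between stained and entire controls kept their directions there. Signal over background limits the dim probe sets: both Cd74 probe sets, x71127_g_at, m21354_s_at and z78279_at had arrays at the floor, so their differences depend on it. The causes of these changes were not tested.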
